A study of Mus musculus with 66 samples.

Results

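Vimentin, the oligodendrocyte membrane protein gene Tmem63a, the pericyte receptor gene Pdgfrb, the vascular gene Ifitm2, the meningeal genes Slc6a13 and Cdkn1c and the alpha-globin gene Hba-a2 were followed in the cerebellum of C57BL/6 mice. A probe was taken when the annotation of the array platform gave it exactly 1 gene symbol and that symbol was one of these 7 genes, out of 4209 different genes named in this way. This gave 9 of the 8448 probes on the filter: 1 probe for each of 6 genes and 3 probes, numbered 10328, 10504 and 11536, for Hba-a2. Each of the 66 mice had its own nylon filter of cDNA clones, to which radiolabelled cDNA of its cerebellum was hybridized. Values are Z scores, in which the mean of all probes of an array is 0 and their SD is 1, so a difference of 1 Z unit equals the SD across one filter and gives no fold change.

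The labels name the strain and no other genotype. The ad libitum (AL) mice ate regular feed freely: 5 mice of 17-21 days (the third week), 5 of 33-44 days (the sixth week), 10 of about 6 months (169-194 days), 10 of about 16 months (476-499 days) and 9 of about 24 months (704-743 days). The mice on caloric restriction (CR) were brought in steps to a reduced ration of fortified feed in the fourth month of age and were about 6 months (9 mice, 174-194 days), 16 months (10 mice, 472-499 days) or 24 months old (8 mice, 673-743 days). The 3 CR males of the oldest group were all 673 days old, younger than the AL males of 719-743 days, so diet and age cannot be told apart in them. Both sexes were present in every group and were weighted equally in each comparison.

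The genes stand for cells that surround or feed cerebellar neurons. Vimentin forms intermediate filaments in Bergmann glia, in blood vessels and in meningeal cells. Tmem63a encodes a mechanosensitive channel that is abundant in myelin-forming oligodendrocytes, and Pdgfrb is the receptor through which pericytes are drawn to vessels. Ifitm2 encodes an antiviral membrane protein found in endothelial and immune cells. Slc6a13 (GAT2), a transporter of GABA and taurine, and Cdkn1c (p57), an inhibitor of the cell cycle, mark fibroblasts of the meninges. Hba-a2 encodes the alpha chain of haemoglobin and is carried mainly by red cells and their precursors. In tissue of mixed cells, fewer cells of a type and less RNA per cell cannot be told apart.

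On 4 arrays the markers stood far from the other mice. These arrays also had the lowest correlations with the other arrays (at most 0.921), whereas the median was 0.968 and the lowest 0.922 among the other 62. The arrays numbered 21 (CR male, 16 months) and 22 (CR female, 16 months) gave exactly the same value for Vim, Ifitm2 and Hba-a2 probe 11536, -2.62 on the former and -2.64 on the latter, whereas these probes were never below 0.82 on the other 62 arrays. When the probe numbers are cut into runs of 22, these 3 probes share position 8. The places of the probes on the filter itself were not used. Of the 384 probes at that position, 235 had the value -2.62 on array 21 and 319 had the value -2.64 on array 22, against 8 and 10 of the 8064 other probes. On array 26 (CR female, 24 months) Cdkn1c was at 0.07, Ifitm2 at 2.30 and Slc6a13 at 2.85. On array 29 (AL male of the third week) Vim was at -0.03, Pdgfrb at 0.20 and Slc6a13 at 0.71. The values below are from the other 62 arrays unless all 66 are named. These keep 1 male and 3 females of the third week, so that male weighs as much as the 3 females in each comparison with that age.

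**Figure D1:**
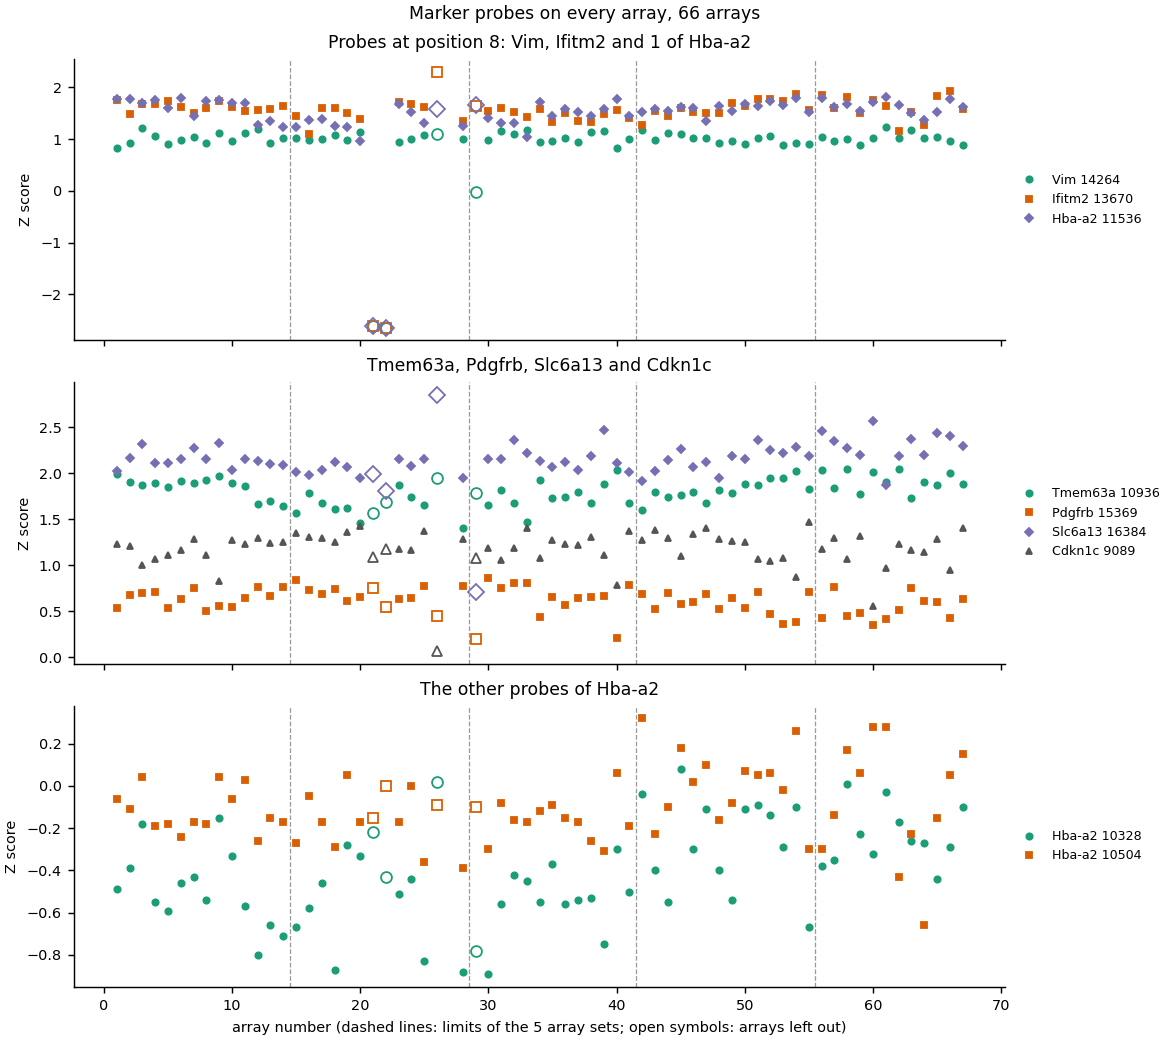
Z score of each marker probe (y axis) on each of the 66 arrays, placed by array number (x axis); dashed lines separate the 5 array sets and open symbols are the 4 arrays left out. The 3 probes at position 8 fall together to -2.62 and -2.64 on arrays 21 and 22, while the 6 other probes are at -0.43 or above there.

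The first question was whether any marker changed with age, diet or sex in these mice. Over 13 comparisons, 0 of the 9 probes passed at a Benjamini-Hochberg adjusted p under 0.05 in limma, and the smallest adjusted p of a marker was 0.774. Over all probes the share that passed was 0% in each of the 11 comparisons of adult mice and 0.0118% in each comparison with the third week. That last share is 1 probe of 8448, annotated as Map7d2, which fell in both. At an unadjusted p under 0.05, 8 of the 117 differences of marker probes stood out. The number of markers at that level was 0 of 9 for AL mice from 6 to 16 months (1.35% of all probes), 1 from 16 to 24 months (4.08%) and 0 from 6 to 24 months (2.6%). In CR mice it was 0 from 6 to 16 months (2.31%), 2 from 16 to 24 months (2.81%) and 0 from 6 to 24 months (1.11%). Between the diets it was 0 at 6 months (0.734%), 0 at 16 months (2.39%) and 1 at 24 months (2.57%). It was also 0 for the difference between the diets in the change from 6 to 24 months (0.9%). It was 1 between adult females and males (1.38%), 2 from the third to the sixth week (5.82%) and 1 from the third week to 6 months (4.13%). The 95% intervals of the marker differences reached from ± 0.0566 to ± 0.317 Z units. They are not the limit of detection after adjustment, which is wider. In CR mice from 16 to 24 months Hba-a2 probe 10328 differed by -0.282, beyond its interval of ± 0.224, and did not pass.

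**Figure D2:**
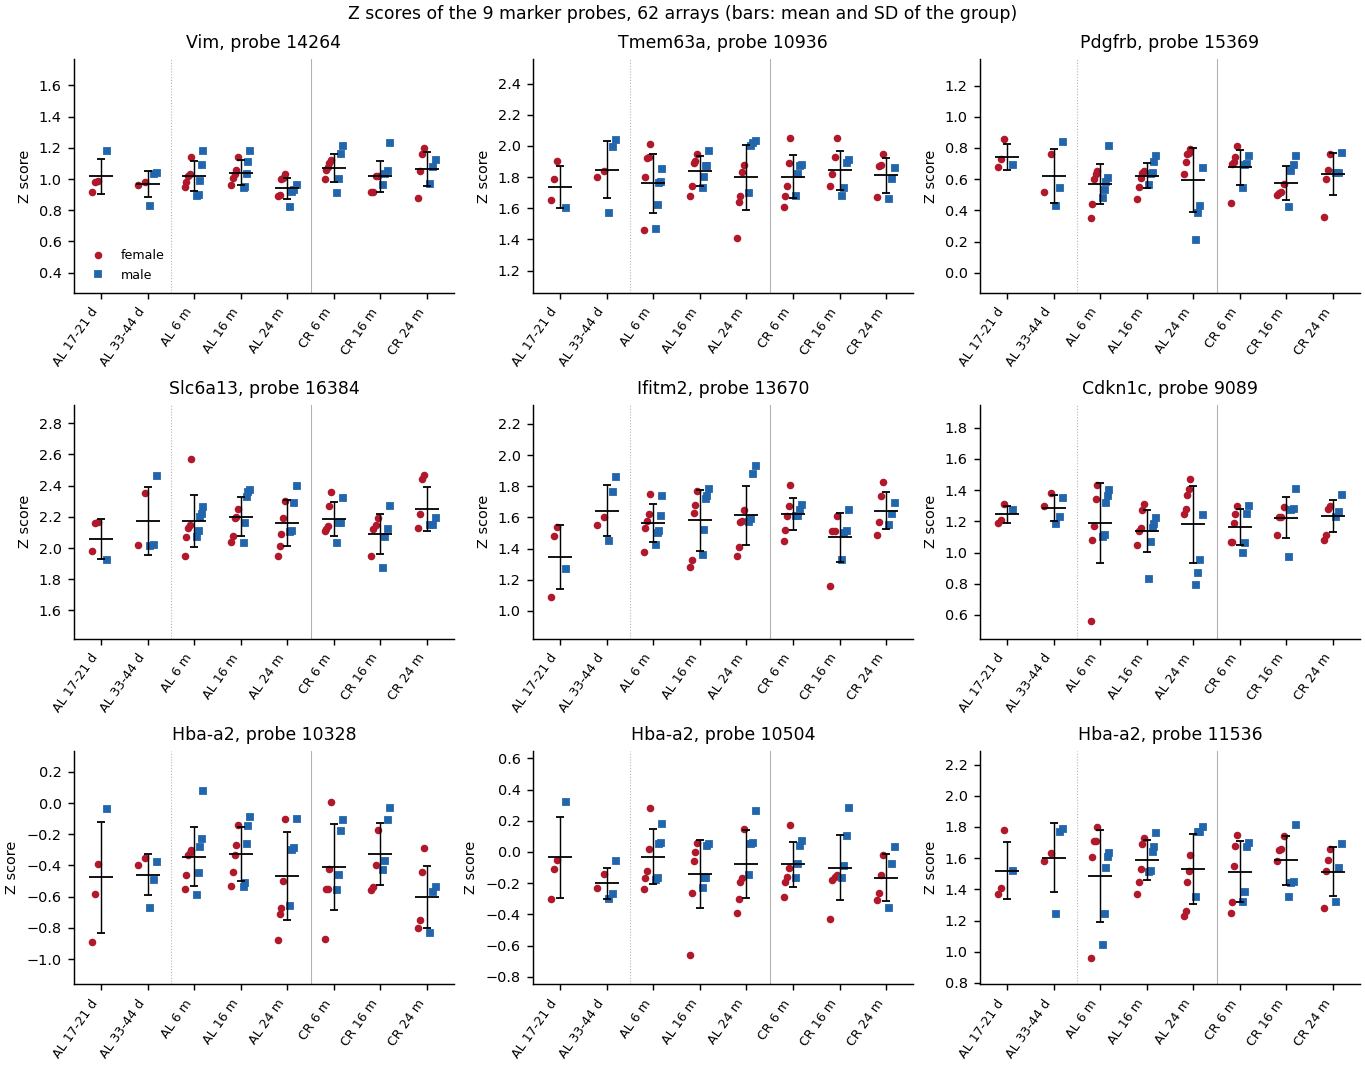
Z score (y axis) of each marker probe in the 8 groups of age and diet (x axis; AL, ad libitum; CR, caloric restriction; d, days; m, months), 62 arrays. Each point is 1 mouse, horizontal bars with whiskers are the mean and SD, and each panel spans 1.5 Z units around the probe's mean; the groups overlap in every panel.

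**Figure D3:**
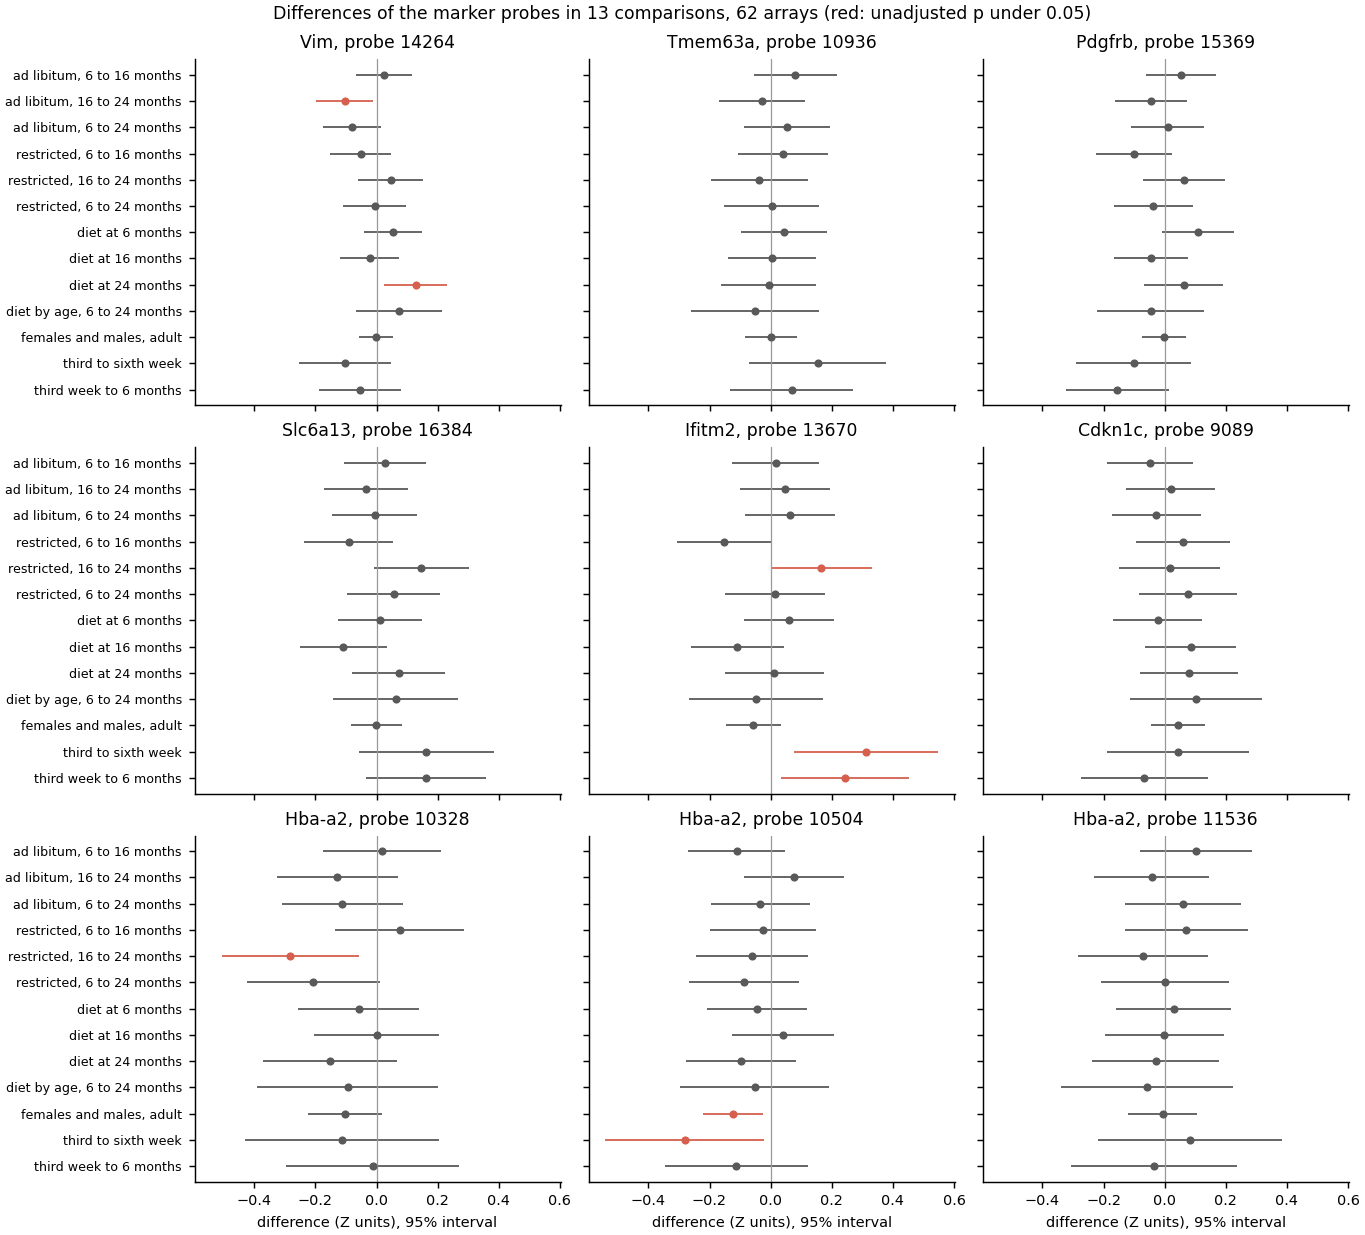
Difference in Z units (x axis, later minus earlier age, CR minus AL, female minus male) with its 95% interval for the 9 marker probes in 13 comparisons (y axis). Red marks the 8 differences with an unadjusted p under 0.05, of which 0 passed after adjustment.

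Vim was the steadiest of the markers. Its Z score ran from 0.82 to 1.23 over the 62 arrays, and its SD within groups was 0.0924, lower than that of all but 1.85% of probes. In AL mice the lowest, median and highest values were 0.89, 1.005 and 1.18 at 6 months, 0.94, 1.03 and 1.18 at 16 months, and 0.82, 0.93 and 1.03 at 24 months. The oldest AL mice had the lowest mean, 0.940 ± 0.0671 (SD, n = 9), although their range overlapped that of each younger group. The difference from 16 to 24 months was -0.104 (SE 0.0468, unadjusted p = 0.0302, adjusted p = 0.999 in limma). It was -0.0496 (unadjusted p = 0.309) once each position of the filter was centred on its own median. In CR mice of 24 months the values were 0.88, 1.08 and 1.20 (lowest, median and highest), and CR minus AL at that age was 0.128 (SE 0.0516, unadjusted p = 0.0165, adjusted p = 1.00), in a comparison that holds the younger CR males. The change from 6 to 24 months did not pass as different between the diets (0.0738, 95% interval ± 0.140). In young mice Vim was at 0.92, 0.98, 0.99 and 1.18 in the third week and at 0.83, 0.96, 0.98, 1.03 and 1.04 in the sixth week, with overlapping ranges. With all 66 arrays the change from 6 to 16 months on restriction went from -0.0523 to -0.782 (SE 0.297), and it did not pass (adjusted p = 0.416).

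Tmem63a gave the smallest differences among adults. The means of the 6 adult groups lay within 0.0848 Z units of each other, whereas the SD within a group was 0.0979 to 0.209. The lowest, median and highest values were 1.46, 1.785 and 2.01 in AL mice of 6 months, 1.41, 1.83 and 2.03 in AL mice of 24 months, and 1.66, 1.86 and 1.95 in CR mice of 24 months. The change from 6 to 24 months was 0.0538 (95% interval ± 0.140) in AL mice and 0.00300 (± 0.155) in CR mice, and females differed from males by 0.000167 (± 0.0847). In the third week, when myelination of the mouse cerebellum is under way, the values were 1.60, 1.65, 1.79 and 1.90, and in the sixth week 1.57, 1.80, 1.84, 1.99 and 2.04. The difference of 0.153 (SE 0.112) had an adjusted p of 0.774 in limma.

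For the vessels, Pdgfrb was the pericyte marker, and Ifitm2 was the only marker gene on the endothelial list, which also held Cd34 and others. Pdgfrb was at 0.68, 0.69, 0.73 and 0.86 in the third week and at 0.43, 0.52, 0.54, 0.76 and 0.84 in the sixth week. The youngest mice had its highest mean (0.740 ± 0.0829, SD, n = 4) and AL mice of 6 months its lowest (0.568 ± 0.127, SD, n = 10). With the sexes weighted equally, as in the test, the mean of the third week was 0.723. The difference between these groups was -0.155 (SE 0.0840, unadjusted p = 0.0701, adjusted p = 0.878 in limma), and on 63 arrays, with the mouse of array 29 back, it was -0.0328. Among adults the lowest, median and highest values were 0.35, 0.59 and 0.81 in AL mice of 6 months and 0.45, 0.70 and 0.81 in CR mice of that age (difference 0.108, SE 0.0588, unadjusted p = 0.0720).

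Ifitm2 had the largest marker difference of all 13 comparisons. It was at 1.09, 1.27, 1.48 and 1.54 in the third week and at 1.45, 1.55, 1.60, 1.76 and 1.86 in the sixth week, so that the groups met between 1.45 and 1.54. The rise in the mean was 0.313 (SE 0.117, unadjusted p = 0.0101, adjusted p = 0.774 in limma). Compared with AL mice of 6 months (lowest 1.38, median 1.555, highest 1.75) the difference was 0.244 (SE 0.105, unadjusted p = 0.0237, adjusted p = 0.878). The mouse of array 29 read 1.64, above all 4 of its age group, and with it on 63 arrays the 2 differences were 0.220 and 0.152. In CR mice Ifitm2 had values of 1.45, 1.61 and 1.81 (lowest, median and highest) at 6 months, 1.16, 1.51 and 1.65 at 16 months, and 1.49, 1.62 and 1.83 at 24 months. The change from 16 to 24 months was 0.166 (SE 0.0828, unadjusted p = 0.0499, adjusted p = 0.998), and it became 1.05 (SE 0.351, adjusted p = 0.464) when all 66 arrays were used. When single mice were left out it was 0.118 to 0.194, and 7 of 15 refits kept an unadjusted p under 0.05 in limma. The highest p, 0.159, came without the fifth CR female of 16 months. The change was -0.152 (SE 0.0775) from 6 to 16 months and 0.0140 (SE 0.0808) from 6 to 24 months. The first criteria of the study were a Z-ratio of at least 1.5 (the difference in units of the SD that such differences have across the filter), a mean Z score above 0 and an unadjusted p under 0.05. The analysis of variance that the study ran on such genes afterwards was left out. Ifitm2 alone of the markers met the criteria: for CR mice from 16 to 24 months (Z-ratio 1.90), from the third to the sixth week (1.96) and from the third week to 6 months (1.88). Over all probes the shares that met them were 0.58%, 1.88% and 1.8%. Hba-a2 probes 10328 and 10504 failed only on the mean above 0 where their Z-ratios were larger in size. These were -3.22 for probe 10328 in CR mice from 16 to 24 months and -2.86 for probe 10504 between females and males. From the third to the sixth week probe 10504 also failed only on the mean (-1.76). The Ifitm2 relative Ifitm3 differed by 0.152 (unadjusted p = 0.0184) in CR mice from 16 to 24 months and by 0.178 (unadjusted p = 0.00502) from 6 to 24 months, with adjusted p values of 0.998 and 1.00. The family list held 3 probes, those of Ifitm2, Ifitm3 and Ifi27. In CR mice from 16 to 24 months 2 of the 3 had a positive difference. From the third to the sixth week, where Ifitm2 rose most, only 1 of the 3 did, with a median of -0.0258 (-0.0125 over all probes).

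The meningeal markers did not move together. Slc6a13 was at 1.92, 1.98, 2.16 and 2.17 in the third week and at 2.01, 2.02, 2.02, 2.35 and 2.46 in the sixth week. AL mice of 6 months had 1.95, 2.14 and 2.57 (lowest, median and highest), against 1.95, 2.11 and 2.40 at 24 months, a difference of -0.00650 (95% interval ± 0.138). CR mice had 2.03, 2.16 and 2.36 at 6 months, 1.87, 2.12 and 2.27 at 16 months, and 2.13, 2.19 and 2.47 at 24 months. The difference from 16 to 24 months on restriction was 0.147 (SE 0.0776, unadjusted p = 0.0642). The comparison with the youngest mice depended on array 29 and on the normalization. From the third week to 6 months Slc6a13 differed by 0.161 (SE 0.0981, adjusted p = 0.878 in limma) without array 29 and by 0.464 (SE 0.105, adjusted p = 0.0304) on 63 arrays with it, and the adjusted p was 0.0604 on all 66. Under quantile normalization of the 62 arrays it was 0.0190 (SE 0.0721), and the difference from the third to the sixth week was -0.0271 in place of 0.163.

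Cdkn1c was at 1.19, 1.21, 1.27 and 1.31 in the third week and at 1.18, 1.23, 1.30, 1.35 and 1.38 in the sixth week. Its group means ranged from 1.14 to 1.29, and 0 of its 13 differences had an unadjusted p under 0.05. In AL mice of 24 months the 5 females were at 1.25 to 1.47 and the 4 males at 0.79 to 1.24, a gap that was picked after the values were seen and was not tested. The lowest value, 0.56, came from a female AL mouse of 6 months that had the highest Slc6a13 value, 2.57. With array 26 kept, CR minus AL at 24 months went from 0.0803 (SE 0.0799) to -0.0319 (SE 0.102), and in females alone, which leaves out the younger CR males, it was -0.164 (SE 0.105, unadjusted p = 0.127).

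The 3 probes of Hba-a2 did not read alike. Over 62 arrays probe 10328 had a mean Z score of -0.413, probe 10504 of -0.0995 and probe 11536 of 1.54, so probes that the annotation gives to the same gene differed by almost 2 SD of the filter. Mouse Hba-a2 and Hba-a1 are near-identical copies, and a cDNA clone of one is likely to capture the transcript of the other. Probe 10328 varied most closely with probes of Hba-a1: its 3 most alike probes among 4742 with a proper symbol were all Hba-a1, with r of 0.832, 0.825 and 0.789 over 62 arrays. Over all 12 Hba-a1 probes the median r was 0.655 for probe 10328, 0.512 for probe 10504 and 0.334 for probe 11536, and 0.563, 0.411 and 0.239 once group and array set were removed. The 3 probes most like 11536 were those of Fam32a, Pcf11 and Hs1bp3 (r of 0.952, 0.916 and 0.909).

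In the oldest restricted mice probe 10328 was low. Its lowest, median and highest values were -0.87, -0.46 and 0.01 in CR mice of 6 months, -0.56, -0.385 and -0.03 at 16 months, and -0.83, -0.57 and -0.29 at 24 months. The last group had the lowest mean of all, and its range still overlapped that of the 16-month mice. The change from 16 to 24 months was -0.282 (SE 0.112, unadjusted p = 0.0147, adjusted p = 0.998 in limma). In females alone it was -0.153 (SE 0.152). AL mice changed by -0.129 (SE 0.0990) over the same ages. CR minus AL at 24 months was -0.154 (SE 0.109, unadjusted p = 0.165 in limma). The diets differed by -0.0948 (SE 0.147) in the change from 6 to 24 months, so the low values were not shown to belong to restriction. The 3 restricted males of the oldest group, at 673 days, had a mean of -0.647, against -0.235 in the males of 16 months. Probes 10504 and 11536 changed by -0.0608 (SE 0.0917) and -0.0704 (SE 0.106) in the same mice. Probe 10504 had 28 adult females at -0.66, -0.165 and 0.28 (lowest, median and highest) and 25 adult males at -0.36, 0.03 and 0.28. The female mean was below the male mean in 6 of 6 groups of age and diet, and the difference of -0.124 did not pass (SE 0.0490, unadjusted p = 0.0145, adjusted p = 1.00). In 5 of the 6 groups probe 10328 was also lower in females (-0.103, SE 0.0597, not past either threshold), while probe 11536 differed by -0.00719 (SE 0.0569). From the third week (-0.30, -0.11, -0.05 and 0.32) to the sixth week (-0.30, -0.27, -0.23, -0.14 and -0.06) probe 10504 differed by -0.281 (SE 0.130, unadjusted p = 0.0351, adjusted p = 0.774). Sexes count equally, so the only kept male of the third week, at 0.32, carries much of this value, and on 63 arrays it was -0.176 (SE 0.116, unadjusted p = 0.135).

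The wider list of red cell genes leaned the same way as probe 10328. The filter carried 27 probes for 10 of its 23 genes, among them 12 for Hba-a1 and 4 for the embryonic globin gene Hbb-y. From 16 to 24 months on restriction 22 of the 27 probes had a negative difference, whereas 51.5% of all probes had a positive one. At an unadjusted p under 0.05, 8 of the 27 were lower and 0 higher, and none passed after adjustment. Of all probes 1.92% were lower at that level. Negative differences numbered 24 of 27 in AL mice over the same ages (48.3% of all probes positive). They numbered 23 from 6 to 24 months in AL mice (49.5%), 21 over those ages in CR mice (50.7%) and 22 from the third to the sixth week (46.7%). From 6 to 16 months they numbered 10 in AL mice (51.3%) and 6 in CR mice (47.9%). The list median in CR mice was 0.0755 from 6 to 16 months and -0.0238 from 6 to 24 months. From 6 to 24 months in CR mice 1 of the 27 probes was lower at an unadjusted p under 0.05 (0.592% of all probes). With each position centred, 15 of those 27 differences were negative. The 8 lower probes from 16 to 24 months on restriction were Hba-a2 probe 10328, 5 probes of Hba-a1, 1 of Hbb-y and 1 of Alas2, the first enzyme of haem synthesis in red cells (-0.223, SE 0.0936). In AL mice Alas2 differed by 0.228 (SE 0.0805, unadjusted p = 0.00655 in limma) from 6 to 16 months. It differed by -0.1905 (SE 0.0829, unadjusted p = 0.0257) from 16 to 24 months. The globin probes share sequence and are not independent readings. For CR mice from 16 to 24 months the median difference of the list was -0.0929, against 0.00292 over all probes. The number of lower probes was 1 in females alone (1.56% of all probes lower), 1 with all 66 arrays (5.20%; 2 were then higher), 5 under quantile normalization (1.68%), 5 with each position centred (1.75%) and 9 when the array set was blocked (3.01%), and 2 to 10 when single mice were left out. It was 2 without the second CR male of 24 months, 3 without the fifth CR female of 16 months and 5 without the third CR female of 24 months. In AL mice over the same ages the median of the list was -0.0778, with 4 probes lower and 0 higher at an unadjusted p under 0.05, against 2.66% of all probes lower. That count was 1 under quantile normalization, 2 with all 66 arrays and 0 to 4 when single mice were left out. Between adult females and males the median was -0.0370, with 4 probes lower in females, 3 of them Hba-a1, and 0 higher (0.663% of all probes were lower). That count was 9 under array weights or when the array set was blocked, 2 with each position centred, 0 with each position centred on all 66 arrays, and 2 to 8 when single mice were left out.

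The other cell type lists were thinly covered, and 0 of their probes passed in any of the 13 comparisons. For astrocytes and Bergmann glia 5 of 28 genes had a probe, 6 probes in all, among them the gap junction gene Gja1 (mean Z score 1.09), Vim and the glutamate transporter gene Slc1a3 (0.231). For oligodendrocytes 4 of 30 genes had 1 probe each, and beside Tmem63a these were Bcas1 (-0.0316), Gsn (-0.377) and Car2 (-1.44). From 6 to 24 months in AL mice the median difference was -0.00963 for the astrocyte list and -0.000750 over all probes, and the astrocyte gene Cst3 differed by 0.269 (SE 0.117, unadjusted p = 0.0253). In CR mice from 6 to 16 months 3 of the 6 astrocyte probes were above 0, with a median of 0.0415 (-0.00350 over all probes), and Cst3 differed by 0.277 (SE 0.123) and Car2, the carbonic anhydrase of oligodendrocytes, by 0.324 (SE 0.118, unadjusted p = 0.00836). For endothelial cells 8 of 33 genes had a probe, of which Cd34 (1.65) and Ifitm2 were above 0. Like Ifitm2, Cd34 was higher in the sixth than in the third week in its mean (0.230, SE 0.114, unadjusted p = 0.0494). For mural cells, the pericytes and smooth muscle of vessels, 6 of 20 genes had a probe, among them Mcam (1.19) and Pdgfrb, and the tropomyosin gene Tpm2 differed by 0.340 (SE 0.108, unadjusted p = 0.00267) in CR mice from 6 to 16 months. The meningeal list had 18 probes for 12 of its 28 genes, among them Col3a1 (1.47), and 12 of the 18 were above 0. From 6 to 24 months on restriction 2 of the 18 were lower at an unadjusted p under 0.05 (0.592% of all probes were lower), 1 of the 2 probes of the matrix gene Dcn (-0.295, SE 0.121) and Aldh1a2 (-0.155, SE 0.0737), with adjusted p values of 1.00 in limma. At 24 months the same Dcn probe had a difference between the diets of -0.262 (SE 0.121) at an unadjusted p of 0.0349. The microglia list had 4 probes, among them Fcer1g (1.12), and the choroid plexus list had 2, both below 0. Of the markers of cerebellar neurons 3 of 18 genes had a probe: the Purkinje cell genes Car8 (0.856) and Calb1 (-0.635 to 0.382 over 4 probes), and Gng13 (-0.669). A probe's brightness depends on its clone as well as on its transcript, so these means do not order the genes by transcript level.

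**Figure D4:**
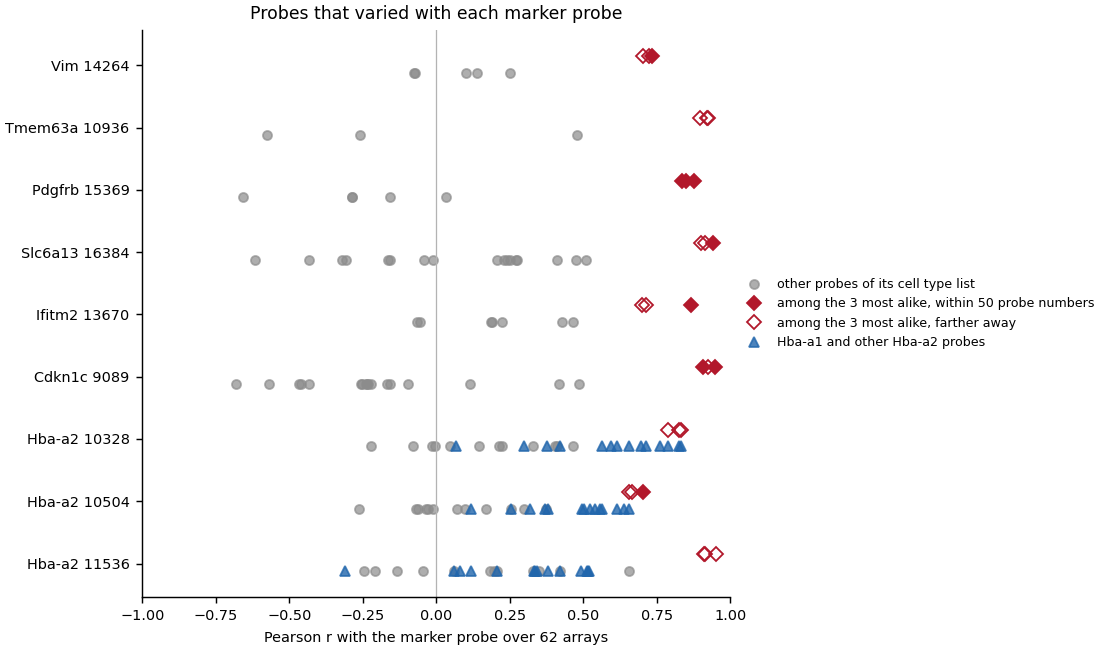
Pearson r over 62 arrays (x axis) between each marker probe (y axis) and the other probes of its cell type list (grey circles, with probes of Hba-a1 and Hba-a2 as blue triangles), and its 3 most alike probes among those with a proper gene symbol (red diamonds, filled where the probe number lies within 50). None of the 3 most alike probes of the 6 markers other than Hba-a2 belonged to the marker's own list, while all 3 of Hba-a2 probe 10328 were Hba-a1.

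In families related to the markers, too, 0 probes passed. Of the 3 probes for cyclin-dependent kinase inhibitors, Cdkn3 differed by 0.205 (SE 0.0943, unadjusted p = 0.0344) from the third to the sixth week and by 0.190 (SE 0.0844, unadjusted p = 0.0284) from the third week to 6 months. The neurofilament gene Nefl, an intermediate filament gene like Vim, had means of -0.00516 and -1.01 on its 2 probes. Of the family of PDGF ligands and receptors, whose list also held the related receptor gene Kit, Pdgfa and Pdgfc had means of 0.283 and 0.264, and among relatives of Slc6a13 the creatine transporter gene Slc6a8 was at -0.886 and the taurine transporter gene Slc6a6 at -1.12. In AL mice from 16 to 24 months Slc6a8 differed by -0.121 (SE 0.0553, unadjusted p = 0.0329) and 1 of the 2 Kit probes by -0.0973 (SE 0.0462, unadjusted p = 0.0404).

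Several markers differed with the array set, the run of array numbers in the labels to which a mouse belonged. With group held in the model, 57.8% of all probes differed between the 5 sets at an adjusted p under 0.05 in limma, and 4 of the 9 markers did. Tmem63a (adjusted p = 0.000411) had set means of 1.86, 1.64, 1.76, 1.82 and 1.92 in sets 1 to 5. Slc6a13 (adjusted p = 0.00273) had set means from 2.05 in set 2 to 2.30 in set 5. Hba-a2 probe 10328 (adjusted p = 6.85e-05) was at -0.585 in set 2 and -0.236 in set 5, and probe 11536 (adjusted p = 0.00151) at 1.32 and 1.63. For these 4 probes the gap between sets was larger than that between any 2 groups of age and diet. Vim varied least between sets, with set means of 1.00 to 1.04 (adjusted p = 0.725). Each set held at most 1 mouse of each sex, age and diet, and with the set as a block 0 of the 117 differences passed. The methods speak of balanced batches in sample processing, but no label ties an array to a batch, and whether sets and batches coincide is unknown.

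Some of the probes that varied most like a marker lay near it in probe number. Of the 27 most alike probes, 3 for each marker, 9 lay within 50 probe numbers of it, where a median of 1.22% of the 4742 candidates lay, and for 6 of the 9 markers the most alike probe was among them. A further 8 lay 480 to 571 numbers away, a window of distance that held a median of 2.38% of candidates and was chosen after the values were seen. Pdgfrb was closest to Exosc2, Tm9sf4 and Klhl8 (r of 0.877, 0.850 and 0.835), each within 50 numbers of it. Cdkn1c was closest to Tulp3 (0.949), Odr4 (0.925) and Zbtb8a (0.907), Slc6a13 to Usp25 (0.942), Cryl1 (0.916) and Snrpe (0.899), and Tmem63a to Hs1bp3 (0.924), Oser1 (0.920) and Fbxo21 (0.896). Vim was closest to Meis2 (0.734), Kit (0.722) and Smc1a (0.705), Ifitm2 to Zc3h13 (0.866), Wnt4 (0.713) and Dnaja1 (0.701), and Hba-a2 probe 10504 to Rxrb (0.704), P4hb (0.664) and Hba-a2 probe 10328 (0.655). Of the 27 probes, 4 were globin probes, 3 beside Hba-a2 probe 10328 and 1 beside probe 10504. Over the cell type lists the median r was 0.0997 for Vim with the 5 other astrocyte probes (-0.00910 over all probes), -0.260 for Tmem63a with the 3 other oligodendrocyte probes (-0.0141), -0.286 for Pdgfrb with the 5 other mural probes (-0.0132) and 0.188 for Ifitm2 with the 7 other endothelial probes (-0.0430). For the meningeal list it was 0.205 for Slc6a13 (-0.0256 over all probes) and -0.234 for Cdkn1c (-0.0491), and the r between these 2 markers was -0.433. With the 100 probes within 50 numbers the median r of the 9 markers was 0.0544 to 0.288. The most alike probes are the highest of 4742 and are not set against these medians. Vim and Ifitm2 had an r of -0.169 over the 62 arrays and of 0.933 over all 66, which include arrays 21 and 22. These correlations describe 62 arrays that share a filter layout and array sets, and they were not tested.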

How the data were processed

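The deposited values are Z scores: the authors quantified phosphor images of the filters and standardized every array, so that its 8448 probes have mean 0 and SD 1. The sources used here do not state a log transform or a background correction. The scores have 2 decimals and 0 are missing. The number of arrays limits the precision, and a shift of all probes cannot be seen.

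Probes were named from the platform annotation where it gave 1 symbol (4875 probes; 224 had several and 3349 none). Of these, 4861 had a gene ID in a RefSeq table, and 0 symbols differed. Names stand for probes as annotated. Sequences of the clones were not used here.

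The 16 groups of sex, age and diet were fitted as means to 62 arrays on all probes, using lmFit, contrasts.fit and eBayes of limma 3.58.1 under R 4.3.3, with 46 residual degrees of freedom. The arrays numbered 21, 22, 26 and 29 in the titles were left out. Tests were two-sided, with Benjamini-Hochberg adjustment over all probes at 0.05. The spread between arrays covers mice and hybridizations together. The fit was run on simulated data with independent noise and no differences between array sets, so that run does not bear on such effects.

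The markers, the 14 gene lists and the arrays left out were chosen with earlier results of these data known. Text names all marker probes, their 3 most alike probes with a proper symbol and up to 3 probes with the highest mean of each list. It also names some, not all, of the list probes with an unadjusted p under 0.05, chosen after their values were seen. The alternatives were all 66 arrays, 63 arrays (array 29 kept), array weights, a filter on the mean, quantile normalization, centring of positions, the array set as a block, the compared groups alone, leaving out single mice and the criteria of the methods (without the later analysis of variance), with females alone added after the data were seen.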

Additional observations from a re-analysis of the deposited data

Results flagged for a closer look

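In each of the 8 groups of age and diet, the lowest and highest of the 66 arrays were checked for each marker probe against a limit that chance alone passes in about 1 in 20 groups. Of 72 checks 9 passed it. Arrays 29 and 26 gave 6 of these: in the third week Vim at -0.03, Pdgfrb at 0.20 and Slc6a13 at 0.71 in the first male, and in CR mice of 24 months Slc6a13 at 2.85, Ifitm2 at 2.30 and Cdkn1c at 0.07 in the second female. The others came from arrays that were kept. The fifth female AL mouse of 6 months had Slc6a13 at 2.57 (next value 2.26) and Cdkn1c at 0.56 (next value 1.08), and the fifth female AL mouse of 16 months had Hba-a2 probe 10504 at -0.66 (next value -0.26). The pair of values at -2.62 and -2.64 on arrays 21 and 22 did not pass, because the 2 low arrays of the same group lie beside each other.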

How the results depend on the processing

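No marker difference that passed turned in sign, since 0 of 117 passed, and the call of Slc6a13 from the third week to 6 months on 63 arrays (0.464, adjusted p = 0.0304 in limma) was the only marker call at an adjusted p under 0.05 under any alternative; the criteria of the methods, which use an unadjusted p, were met by Ifitm2 in 3 comparisons. Leaving out single mice gave 0 marker calls in 2412 refits of a difference (smallest adjusted p 0.330) and turned 226 signs, all of differences under 0.641 of their SE; the only male of the third week that was kept could not be left out. All 66 arrays moved 22 of the 117 differences by more than their SE and turned 19 signs, array weights moved 19 and turned 23, position centring moved 31 and turned 24 with all 66 arrays and moved 5 and turned 14 with 62, quantile normalization moved 3 and turned 13, 63 arrays moved 7 and turned 5, and the array set as a block moved 0 and turned 10. Females alone, an alternative added after the data were seen, moved 19 of 36 and turned 14. The 8 differences with an unadjusted p under 0.05 kept their sign when single mice were left out, with p reaching from 0.00278 to 0.159.

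Counts over all probes were 0 in adults and 1 in each comparison with the third week. All 66 arrays, position centring with all 66 and the filter on the mean gave 0 in both of the latter, and the compared groups alone gave 0 from the third to the sixth week. On 63 arrays the counts were 21 and 35, and with array weights 22 and 4. Array weights also gave 1 in CR mice from 16 to 24 months and 1 for diet at 16 months. In AL mice from 16 to 24 months the array set as a block gave 1, as did the compared groups alone. Leaving out single mice gave 0 to 1 in AL mice from 6 to 16 months (1 without the first female of 16 months) and 1 to 3 from the third to the sixth week (2 without the first and 3 without the second female of the sixth week). The criteria of the methods gave 11, 68 and 46 probes in AL mice (6 to 16, 16 to 24, 6 to 24 months), 39, 49 and 9 in CR mice, 4, 70 and 34 for diet at 6, 16 and 24 months, 6 for diet by age, 16 between the sexes, and 159 and 152 from the third week to the sixth and to 6 months. No paired analysis was possible because the labels give no replicate numbers; the array set, fitted as a block above, was the only matching of mice.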
